A study of Homo sapiens with 4 samples.

Results

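Matrix metalloproteinases (MMPs), ADAM proteases, ADAMTS-like proteins (ADAMTSL) and tissue inhibitors of metalloproteinases (TIMPs) were examined in MDA-MB-231Br cells, a human breast cancer line derived from MDA-MB-231 (the sample titles say MDA-MB-231). The members were the genes whose symbol in the platform annotation starts with MMP, ADAM, ADAMTS, ADAMTSL or TIMP followed by a digit, with pseudogenes and antisense transcripts left out. This gave 47 of the 14884 genes with a symbol: 19 MMP, 19 ADAM, 5 ADAMTSL and 4 TIMP genes. Members of these families without a symbol in the annotation used here, among them the ADAMTS proteases and the gelatinases, were not analysed here. Where a gene had several probe sets, the one with the highest mean was used.

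Cells of both groups had been transduced with lentivirus and selected with puromycin. The control group received a control hairpin (shControl) and the other a hairpin against the m6A reader YTHDF3 (shYTHDF3), with 2 Affymetrix arrays of total RNA per group. The labels do not say how many hairpin sequences were used, nor whether a group's samples were grown apart, so p-values cover just the spread among these arrays, which may be technical. YTHDF3 had 0 named probe sets here, so the knockdown itself was not checked.

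MMPs are secreted or membrane-anchored zinc proteases that cut collagens and other matrix proteins, and most are made as inactive precursors. ADAMs are membrane proteases, several of which release growth factors and receptors from the cell surface, while some ADAMs lack the zinc-binding residues and act in adhesion. TIMPs bind and block the active site of MMPs and of some ADAMs. ADAMTSL proteins resemble the non-catalytic part of ADAMTS proteases and have no protease domain. In invasive breast cancer cells these genes are studied for matrix breakdown and for shedding of ligands of the EGF receptor.

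The arrays showed signal for a limited set of the family and no member that differed between the groups by the test used. MMP1, the interstitial collagenase, stood near the top of the array range. The sheddases ADAM9, ADAM10 and ADAM17, the membrane-type protease MMP14 and the inhibitors TIMP1, TIMP2 and TIMP3 were all well above the array median. Of the 39 members bright enough to be tested, 0 passed limma's test at an adjusted p under 0.05, against 96 of all 12755 genes tested (0.753%; 0.666% lower and 0.0862% higher). The unadjusted 95% intervals of all 39 differences lay within 1 on the log2 scale, which is 2-fold in either direction. The same held for 96.2% of all genes tested.

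RefSeq promoter windows were matched by gene identifier for 31 of the 47 members, and the 250 bases before the annotated start were read on build GRCh38.p14. The windows below are shown because the dinucleotide CG was frequent in some members' windows and nearly absent in others. ADAM10 and ADAM17 were above the array median on all 4 arrays, ADAM12 had the largest difference between the groups, and MMP8 and MMP10 were below the median on all 4 arrays. Capitals mark each CG and, in the last 60 bases, the letters TATAAA.
ADAM10 (chr15:58749708-58749957, minus strand): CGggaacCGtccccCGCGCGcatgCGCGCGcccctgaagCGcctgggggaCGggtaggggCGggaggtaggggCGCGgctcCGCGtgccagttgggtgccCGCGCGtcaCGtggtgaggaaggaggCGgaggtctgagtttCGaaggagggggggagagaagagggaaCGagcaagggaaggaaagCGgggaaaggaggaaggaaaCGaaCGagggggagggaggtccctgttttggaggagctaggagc
ADAM17 (chr2:9555831-9556080, minus strand): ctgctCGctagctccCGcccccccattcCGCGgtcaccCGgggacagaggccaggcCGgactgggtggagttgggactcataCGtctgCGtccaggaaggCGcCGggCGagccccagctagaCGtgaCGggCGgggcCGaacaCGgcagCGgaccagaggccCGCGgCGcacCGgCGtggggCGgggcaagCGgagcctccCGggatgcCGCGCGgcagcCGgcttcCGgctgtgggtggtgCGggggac
ADAM12 (chr10:126388478-126388727, minus strand): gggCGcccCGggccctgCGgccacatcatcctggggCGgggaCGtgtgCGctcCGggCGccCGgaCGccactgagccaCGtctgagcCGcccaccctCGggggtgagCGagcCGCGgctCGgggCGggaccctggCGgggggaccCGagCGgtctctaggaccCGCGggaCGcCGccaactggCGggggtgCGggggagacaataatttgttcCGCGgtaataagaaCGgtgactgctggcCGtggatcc
MMP8 (chr11:102724955-102725204, minus strand): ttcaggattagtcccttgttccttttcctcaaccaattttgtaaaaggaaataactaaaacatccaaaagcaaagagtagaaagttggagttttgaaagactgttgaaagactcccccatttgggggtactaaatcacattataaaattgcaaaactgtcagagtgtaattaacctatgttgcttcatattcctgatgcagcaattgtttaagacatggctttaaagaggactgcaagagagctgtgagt
MMP10 (chr11:102780629-102780878, minus strand): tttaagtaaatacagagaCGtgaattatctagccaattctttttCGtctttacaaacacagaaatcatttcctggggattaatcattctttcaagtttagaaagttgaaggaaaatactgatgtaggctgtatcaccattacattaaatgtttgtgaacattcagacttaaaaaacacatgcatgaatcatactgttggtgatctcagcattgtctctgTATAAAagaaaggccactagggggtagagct

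The window of ADAM10 held 25 CG dinucleotides, and those of ADAM17 and ADAM12 held 31 each. The window of MMP10 held 2 and that of MMP8 held 0. Over the 18 matched members above the array median on all 4 arrays the median was 25 CG, with a range of 7 to 38. Over the 3 matched members above it on some arrays only, ADAM12 among them, the median was 31, with a range of 0 to 40. Over the 10 matched members below it on all 4 arrays the median was 2.5, with a range of 0 to 38. Over all 27305 genes with a window the median was 11. Those windows, also used for the shares below, outnumber the 14884 genes with a symbol, so they include genes not analysed here. The classes overlapped: ADAMTSL4, below the median, had 38, and MMP14, above it, had 7. These counts describe the annotated windows and were not tested.

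The letters TATAAA were found on the gene's strand in the last 60 bases of 3 of the 31 windows, those of MMP10, MMP26 and ADAMTSL2, against 3.09% of all windows. The AP-1 letters TGAGTCA or TGACTCA, which are each other's reverse complement and so cover both strands, were found in 0 of the 31 windows and in 4.16% of all windows. No match says only that these letters are not in these windows. No window of MMP1 was used here.

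Values below are log2 expression as deposited. The 4 array medians over all 53617 probe sets ran from 3.20 to 3.22. A member was called above the array median when its probe set exceeded the median on each of the 4 arrays, which 25 of 47 members did (53.2%). The same held for 65.0% of all 14884 genes with a symbol. Another 6 members were above it on some arrays and 16 on none. Probe sets differ in binding strength, so a level places a probe set on its array and does not rank one transcript against another. Against the higher median of the genes with a symbol, 4.39 to 4.42, the count was 15: MMP1, MMP14, MMP24, ADAM8, ADAM9, ADAM10, ADAM15, ADAM17, ADAM19, ADAMTSL1, ADAMTSL2, ADAMTSL5, TIMP1, TIMP2 and TIMP3.

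**Figure D1:**
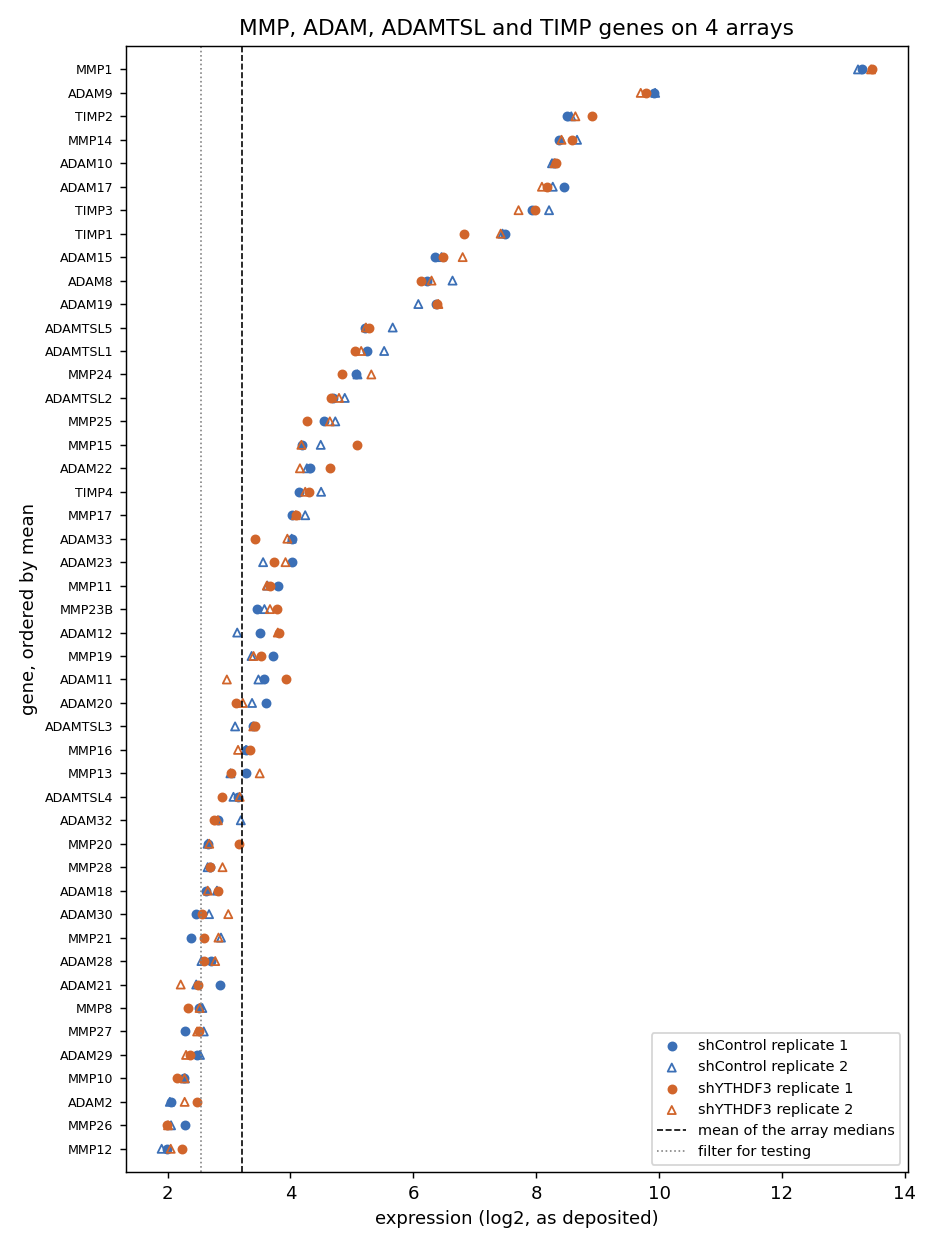
Deposited log2 expression (x axis) of the 47 members (y axis, ordered by mean) on each array; blue marks are shControl, orange marks shYTHDF3, filled circles replicate 1 and open triangles replicate 2. The dashed line is the mean of the array medians and the dotted line the filter for testing (2.54); MMP1 stands apart at 13.24 to 13.47.

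The cell line label was checked against markers. All 5 measured mesenchymal markers, VIM, CD44, AXL, MSN and ZEB1, were above the array median on all 4 arrays. The luminal receptors ESR1 and PGR were below it on all 4, while 4 of 8 measured luminal epithelial markers, EPCAM, KRT19, FOXA1 and GATA3, were above it. Of markers of other cells, PECAM1, VWF, CD14, DCN and LUM were below it on all 4, while KDR, CD68 and MBP were above it. No tested marker passed limma's test. An unadjusted p under 0.05 was reached by 1 of 5 tested mesenchymal markers (ZEB1) and 1 of 3 endothelial markers (VWF). It was reached by 0 of 8 luminal, 2 leukocyte and 2 neural and glial markers, and by 14.7% of all genes tested. In RNA of a whole culture, fewer cells with a transcript and less transcript per cell cannot be told apart.

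Among the collagenases, which cut fibrillar collagen, MMP1 read 13.31 and 13.24 on the control arrays and 13.47 and 13.45 on the knockdown arrays. Both knockdown arrays were above both control arrays, by a mean log2 difference of 0.19 (SE 0.13, 95% interval -0.11 to 0.48), and limma's adjusted p was 0.55. The difference was 0.09 after quantile normalization over all probe sets, and 0.22 with each array centred on its median over the tested genes. With limma's variance trended on intensity, MMP1 had an unadjusted p of 0.041 and an adjusted p of 0.27. In that run 16.6% of all genes tested had an unadjusted p under 0.05. Of the 12755 tested genes 0 had a higher mean than MMP1, and of all probe sets 13 did. MMP1 lay 0.43 to 0.80 below the highest value of its array, and whether the probe set was near saturation was not tested. MMP13 read 3.27 and 3.02 in control and 3.03 and 3.50 in knockdown arrays, with 2 of the 4 values above the array median. MMP8 was below it on all 4 arrays, at 2.33 to 2.57, and was too dim to be tested.

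MMP1 belongs to a row of MMP genes on chromosome 11, which in RefSeq (GRCh38.p14) runs MMP7, MMP20, MMP27, MMP8, MMP10, MMP1, MMP3, MMP12 and MMP13. Of these 9 genes 7 were measured here. MMP1 was the 1 above the array median on all 4 arrays. MMP20, MMP27, MMP8, MMP10 and MMP12 were below it on all 4, with means of 2.79, 2.47, 2.48, 2.25 and 2.05, and MMP13 averaged 3.21. The enamel protease gene MMP20 read 2.65 on both control arrays and 3.17 and 2.68 on the knockdown arrays. Its log2 difference of 0.27 (95% interval -0.15 to 0.69, limma adjusted p = 0.53) became 0.03 when shYTHDF3 replicate 1 was left out, against 0.52 when replicate 2 was.

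Among the stromelysins, MMP11 was above the array median on all 4 arrays, at 3.62 to 3.80, and MMP10 was below it. The matrilysin gene MMP26 was also below it, with a mean of 2.08.

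The membrane-type MMPs are held at the cell surface. MMP14, which activates other MMPs there, read 8.38 and 8.67 in control and 8.59 and 8.41 in knockdown arrays. The groups overlapped, and the log2 difference of -0.02 had a 95% interval of -0.38 to 0.33 (limma adjusted p = 0.97). MMP15 read 4.18 and 4.49 in control and 5.09 and 4.18 in knockdown arrays, so shYTHDF3 replicate 1 stood above the other 3. Its log2 difference was 0.29 with the highest upper bound of any member, in an interval of -0.36 to 0.95 (limma adjusted p = 0.69). MMP24, MMP25 and MMP17 were also above the array median on all 4 arrays, with log2 differences of -0.003, -0.18 and -0.04, and MMP16 was above it on 3. Of the 6 membrane-type MMPs 0 passed limma's test and 0 had an unadjusted p under 0.05, against 14.7% of all genes tested.

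Of the remaining MMPs, MMP23B and MMP19 were above the array median, with means of 3.62 and 3.50. MMP23B has the pseudogene MMP23A as a near-identical copy, whose own probe set averaged 5.65 and differed by -0.04, so signal from the copies cannot be assigned with certainty. MMP20, MMP21, MMP27, MMP28 and MMP12 were below the median on all 4 arrays.

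The catalytic ADAMs, grouped here from textbook knowledge, include the main cell-surface sheddases. ADAM9 read 9.92 and 9.94 in control and 9.79 and 9.70 in knockdown arrays. Its 4 arrays did not overlap between groups, and the log2 difference was -0.18 (95% interval -0.48 to 0.12, limma adjusted p = 0.57). ADAM10, the sheddase of Notch receptors and many adhesion molecules, read 8.29 and 8.26 in control and 8.32 and 8.30 in knockdown arrays. Its log2 difference of 0.03 had a 95% interval of -0.26 to 0.33 (limma adjusted p = 0.94). ADAM17, which releases tumour necrosis factor and several EGF receptor ligands, read 8.46 and 8.27 in control and 8.18 and 8.09 in knockdown arrays. Both knockdown arrays were below both control arrays, with a log2 difference of -0.23 (95% interval -0.55 to 0.09, limma adjusted p = 0.48). The difference was -0.13 when shControl replicate 1 was left out and -0.32 when shControl replicate 2 was.

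ADAM15 read 6.35 and 6.46 in control and 6.48 and 6.80 in knockdown arrays. Its log2 difference was 0.24 with a limma adjusted p of 0.52, and ran from 0.08 without shYTHDF3 replicate 2 to 0.40 without shYTHDF3 replicate 1. ADAM8 and ADAM19, at means of 6.32 and 6.31, had log2 differences of -0.23 and 0.17. ADAM33 read 4.03 and 4.02 in control and 3.42 and 3.95 in knockdown arrays, and its log2 difference of -0.34 (95% interval -0.77 to 0.10, limma adjusted p = 0.45) became -0.08 when shYTHDF3 replicate 1 was left out and -0.60 when replicate 2 was.

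ADAM12, a protease linked to cell fusion and to shedding of HB-EGF, had the largest difference of the tested members. It read 3.50 and 3.13 in control and 3.81 and 3.79 in knockdown arrays. The knockdown arrays were above both control arrays, and the control pair was spread more widely (SD 0.26) than the knockdown pair (SD 0.01). The log2 difference was 0.48 (SE 0.16, 95% interval 0.11 to 0.85), or 1.40-fold, and did not pass over all genes (limma adjusted p = 0.23). ADAM12 was the 1 of 39 tested members with an unadjusted p under 0.05 (2.56%), where 14.7% of all genes tested had one. With 1 array left out the difference ran from 0.30 without shControl replicate 2 to 0.67 without shControl replicate 1. The signal lay near the array median and exceeded it on 3 of 4 arrays.

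ADAM20, a gene described mainly in testis, read 3.61 and 3.38 in control and 3.12 and 3.22 in knockdown arrays. Both knockdown arrays were below both control arrays, by -0.32 on the log2 scale (95% interval -0.65 to 0.01, limma adjusted p = 0.35), or -0.20 without shControl replicate 1. Its pseudogene ADAM20P1 differed by -0.44 (limma adjusted p = 0.21), and signal from these copies cannot be assigned with certainty. ADAM21, ADAM28 and ADAM30 were below the median on all 4 arrays. Among ADAMs without the zinc-binding residues, ADAM22 and ADAM23 were above the median on all 4 arrays, with means of 4.35 and 3.81 and log2 differences of 0.10 and 0.04. ADAM11 read 3.57 and 3.48 in control but 3.93 and 2.97 in knockdown arrays, the widest spread within a pair of any member (SD 0.68). ADAM2, ADAM18, ADAM29 and ADAM32, of which ADAM2 and ADAM18 are known from sperm, were below the median on all 4 arrays.

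Of the 5 ADAMTSL genes, ADAMTSL1, ADAMTSL2 and ADAMTSL5 were above the median on all 4 arrays, ADAMTSL3 on 3 and ADAMTSL4 on 0. ADAMTSL1 read 5.25 and 5.53 in control and 5.05 and 5.15 in knockdown arrays. Its groups did not overlap, and the log2 difference was -0.28 (95% interval -0.63 to 0.06, limma adjusted p = 0.42). Without shControl replicate 2 it was -0.15, and without shControl replicate 1 it was -0.42. ADAMTSL2 and ADAMTSL5 had differences of -0.07 and -0.19.

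All 4 TIMPs were above the array median on all 4 arrays. TIMP1, a secreted inhibitor of most MMPs, read 7.48 and 7.45 in control and 6.82 and 7.42 in knockdown arrays. The log2 difference of -0.35 (SE 0.20, 95% interval -0.82 to 0.12, limma adjusted p = 0.47) shrank to -0.05 when shYTHDF3 replicate 1 was left out, and was -0.65 without shYTHDF3 replicate 2. TIMP2, which also takes part in activation by MMP14, read 8.50 and 8.57 in control and 8.91 and 8.64 in knockdown arrays. Both knockdown arrays were above both control arrays, and the log2 difference was 0.24 (95% interval -0.10 to 0.58, limma adjusted p = 0.49). Leaving out shYTHDF3 replicate 1 gave 0.10, and leaving out shYTHDF3 replicate 2 gave 0.38.

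TIMP3, which binds to the matrix and inhibits ADAM17, read 7.93 and 8.21 in control and 7.99 and 7.71 in knockdown arrays. The groups overlapped, with a log2 difference of -0.22 (95% interval -0.60 to 0.15, limma adjusted p = 0.58). With 1 array left out it ran from -0.36 (without shControl replicate 1 or shYTHDF3 replicate 1) to -0.09 (without shControl replicate 2 or shYTHDF3 replicate 2). A further TIMP3 probe set was below the array median on all 4 arrays and differed by -0.06. TIMP4 read 4.14 and 4.50 in control and 4.31 and 4.24 in knockdown arrays. Its groups overlapped, with a mean of -0.04 for the difference (limma adjusted p = 0.94). Of the 4 TIMPs 0 passed limma's test and 0 had an unadjusted p under 0.05, against 14.7% of all genes tested.

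**Figure D2:**
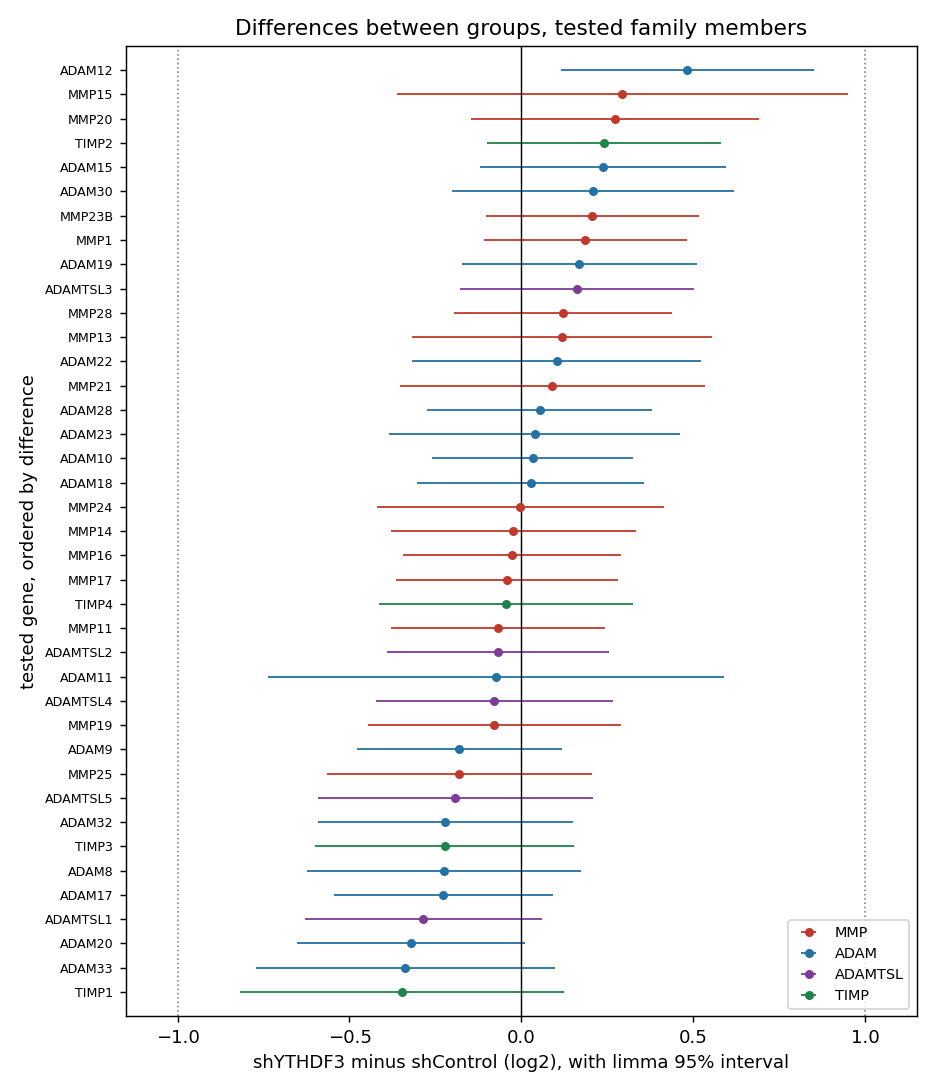
Difference between shYTHDF3 and shControl means (x axis, log2) for each of the 39 tested members (y axis), with limma's unadjusted 95% interval as bars and dotted lines at -1 and 1. The differences run from -0.35 (TIMP1) to 0.48 (ADAM12), and every bar lies between the dotted lines.

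Over the 39 tested members the log2 differences had a median of -0.02, against 0.004 over all genes tested. Of the members 18 had a positive difference (46.2%), against 50.8% of all genes. The median size of a member's difference was 0.17, against 0.15 over all genes. The groups did not overlap for 16 of 39 members (41%), where the share over all genes was 45.5%. Of these members 7 were lower on both knockdown arrays (17.9%, against 22.8% of all genes) and 9 higher (23.1%, against 22.6%). The interval lay within 1 on the log2 scale for 96.2% of all genes tested, and within 0.5 for 16 of 39 members against 49% of all genes. The intervals are not adjusted for the number of members, and the smallest difference that passed over all genes had a size of 0.78. RMA compresses weak signals, so differences of members near the filter can be understated.

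The 8 members too dim to be tested were MMP8, MMP10, MMP12, MMP26, MMP27, ADAM2, ADAM21 and ADAM29. Their means ran from 2.05 to 2.51, under the filter of 2.54, and their differences from -0.30 for ADAM21 to 0.33 for ADAM2. MMP24 and MMP25 had further probe sets. The further one of MMP24 was below the array median on all 4 arrays and differed by 0.28, against -0.003 for the chosen one. The further probe sets of MMP25 differed by 0.16 and 0.06, against -0.18 for the chosen one, so their signs disagreed.

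**Figure D3:**
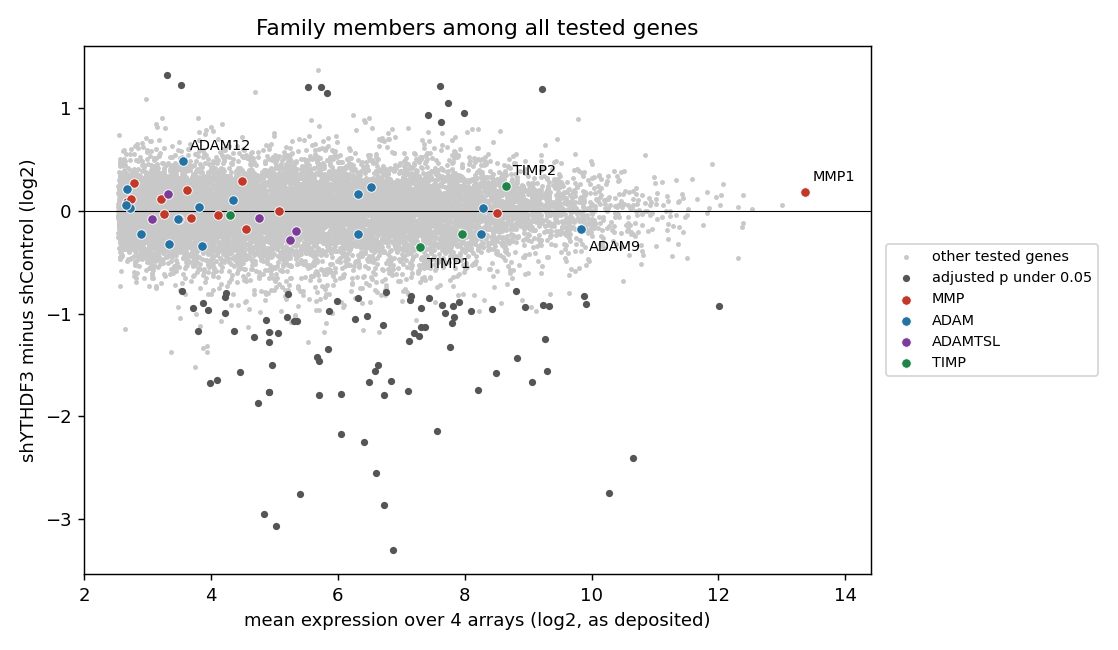
Difference between groups (y axis, log2) against mean expression (x axis, log2) for the 12755 tested genes; dark grey points passed limma's adjusted threshold of 0.05 and coloured points are the tested members by family. The members lie within the band of genes that did not pass, and MMP1 has the highest mean of all tested genes.

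Leaving out an array leaves 1 group with a single array, so a change in counts cannot be laid to that array. The call count over all genes fell whichever array was left out. It was 0 without either control array and 36 without either knockdown array, while no member passed under any of these settings. Without shYTHDF3 replicate 2, 5 of 40 members had an unadjusted p under 0.05 (12.5%, against 12.7% of all genes tested), namely ADAM11, ADAM33, MMP15, MMP20 and TIMP1. Without shControl replicate 1, 4 of 39 did (10.3%, against 10.8%), namely ADAM12, ADAM32, ADAMTSL1 and ADAMTSL5. Both counts lay at the share over all genes. In the runs without shControl replicate 2 or without shYTHDF3 replicate 1 the members' share was below that over all genes.

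Genes that act with these families were read from 5 lists. Activators and other inhibitors of metalloproteinases had 16 tested genes, of which 0 passed limma's test and 2 had an unadjusted p under 0.05, against 14.7% of all genes tested. Their median log2 difference was -0.09. LRP1, an endocytic receptor that clears MMPs and TIMPs, read 4.70 and 4.67 in control and 4.29 and 4.30 in knockdown arrays (log2 difference -0.39, limma adjusted p = 0.22). The thrombospondins THBS2 and THBS1 had differences of -0.32 and -0.34, and the membrane serine protease ST14 had -0.30. RECK, a membrane-anchored MMP inhibitor, differed by -0.11, and the proprotein convertase FURIN, which activates MMP14 and ADAMs, by 0.08. Both RECK and FURIN were picked with their values known.

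The 9 partners of ADAM10 and ADAM17, the iRhom proteins, FRMD8 and tetraspanins that control their transport, were all tested. None passed limma's test, and 0 had an unadjusted p under 0.05, against 14.7% of all genes tested. The median difference was -0.02. The tetraspanins TSPAN17, TSPAN15 and TSPAN14 had differences of 0.36, 0.18 and 0.17, and FRMD8 had -0.29.

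Of 22 tested ligands and receptors that are shed from the cell surface, 0 passed limma's test. At an unadjusted p under 0.05, which 14.7% of all genes tested reached, 4 were lower and 3 higher, and the median difference was 0.06. The EGF family ligand EREG read 10.15 and 10.02 in control and 9.38 and 9.68 in knockdown arrays (log2 difference -0.56, limma adjusted p = 0.16). NRG1, a ligand of ERBB3 and ERBB4, and the Notch ligand JAG1 had differences of -0.50 and -0.53. MICB, a ligand of the NKG2D receptor on lymphocytes, had 0.49. The groups did not overlap for these genes, which were picked by smallest p, a choice that favours such a split. Over all genes tested the share without overlap was 45.5%.

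Of 28 listed matrix substrates 13 were measured here and 11 tested. The listed collagens and laminins were not among those measured. Of the 11, 1 passed limma's test as lower and 0 as higher, against 0.753% of all genes tested in either direction. The difference was positive for 8 of the 11, against 50.8% of all genes. FN1, fibronectin, read 7.37 and 7.40 in control and 6.09 and 5.68 in knockdown arrays. It fell 2.83-fold, with -1.50 as the log2 difference (limma adjusted p = 0.012). Its adjusted p was 0.30 without shControl replicate 1, 0.26 without shControl replicate 2 and 0.053 without shYTHDF3 replicate 2, at differences of -1.52, -1.48 and -1.29. The median over the list was 0.18, and at an unadjusted p under 0.05, 3 further genes were higher (14.7% of all genes tested had such a p in either direction). Of 16 transcription factors known to act on MMP promoters 0 passed limma's test, 3 had an unadjusted p under 0.05, against 14.7% of all genes tested, and the median was -0.07. The AP-1 subunits FOSL1, FOS and JUN had differences of -0.39, -0.38 and 0.33, and the NF-kB subunit NFKB1 had 0.32.

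**Figure D4:**
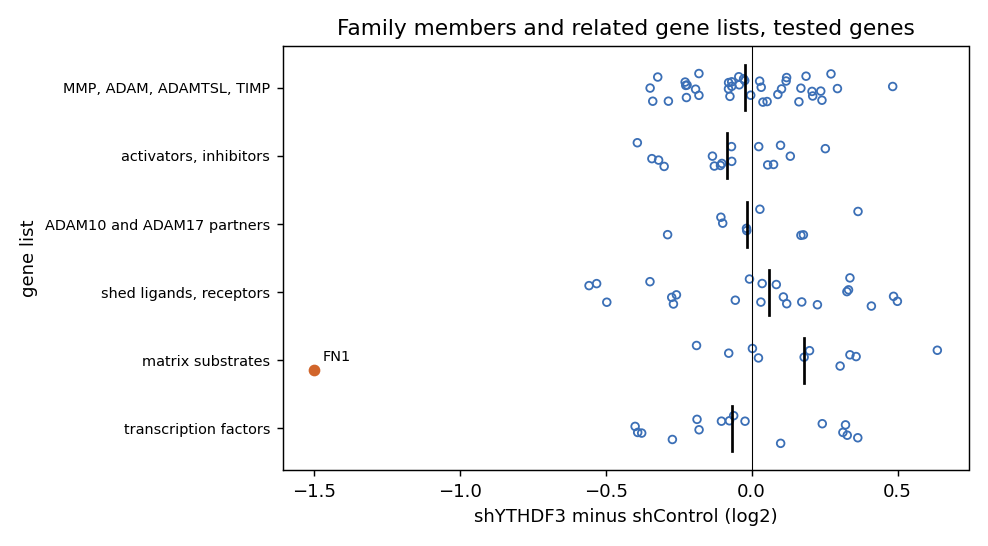
Difference between shYTHDF3 and shControl means (x axis, log2) of each tested gene in the family and in 5 related lists (y axis; vertical scatter within a list has no meaning); black bars are list medians. The filled point is FN1 at -1.50, the 1 gene shown that passed limma's adjusted threshold of 0.05.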

How the data were processed

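RNA of 4 samples, 2 per group by title, was measured on Affymetrix arrays. The deposited table holds log2 expression values per probe set; the submitters' processing notes list RMA, which corrects background and normalizes between arrays. Version, settings and genome build were not stated. Array-wide shifts are removed and weak signals compressed by such processing. Detection calls were absent from the analysis, and precision is limited by having 4 arrays.

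Of 53617 probe sets, 16098 had 1 symbol in the platform annotation, 0 several and 37519 were unnamed here; all 16098 were matched to RefSeq, which changed 0 symbols. Genes whose highest-mean probe set lay at or above the 30th percentile of the whole table (2.54) were tested, 12755 in all. The comparison used limma 3.58.1 (R 4.3.3, lmFit and eBayes) without covariates, 2-sided. It was adjusted by Benjamini-Hochberg across the tested genes at a threshold of 0.05. Since permuting 4 arrays allows no 2-sided p under 0.333, these p-values depend on the spread that limma borrows across genes. The code was also run on simulated data with spreads drawn from limma's own fit. That run cannot show how well the test holds on these arrays.

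Values per array are given by rule for the 10 largest differences, the 6 highest means and all TIMPs, 16 members in all. MMP13 and ADAM11 were given them outside this rule. Up to 4 genes of smallest p, or those past the threshold, are named per list. Others are named by level or after their values were seen. The members and lists were chosen with earlier results of these data known. ADAMs were grouped by catalytic residues from textbook knowledge, since protein sequences were not used here. Alternatives covered the filter, probe set rule, normalization, variance model, a replicate block, the threshold and leaving out each array.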

Additional observations from a re-analysis of the deposited data

How the results depend on the processing

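No member passed limma's adjusted threshold under any alternative run, and their smallest adjusted p ran from 0.17 with the filter at the array median to 0.44 without shControl replicate 2. The count over all genes, 96, was 167 with the filter at the array median, 375 with limma's variance trended on intensity, 250 at a threshold of 0.1 and 11 with a replicate block, and ran from 0 to 36 with 1 array left out; the cause was not tested. With the replicate block FN1 had an adjusted p of 0.11. The labels tie the replicate numbers to nothing, and deviations of the arrays numbered 1 correlated at only 0.04 over 12755 genes, so the numbers were not taken as pairs. The count of members above the median, 25, was 15 against the median of named genes, 31 with any 1 array sufficing, and 25 to 27 with 1 array left out. Among the named members the sign turned for MMP14, at 0.010 with arrays centred on the tested genes and between -0.17 and 0.12 with 1 array left out (0.06 without shYTHDF3 replicate 2), for TIMP4 (-0.23 to 0.14) and for MMP15 (-0.16 to 0.75). None of these was called. The median over members, -0.02, was 0.01 after centring, 0.01 with probe sets averaged and 0.02 without shControl replicate 2.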
